A study of Homo sapiens with 4 samples.

Results

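The 51 genes described here lie on the long arm of chromosome 15, from MAP2K1 in 15q22 to CHD2 in 15q26, over 26.9 Mb of the GRCh37 (hg19) assembly. They were chosen by measured RNA out of 25559 gene symbols, because RNA from this chromosome had been seen to be higher in the RUNX3KO libraries than in wildtype. The same comparison therefore chose them, and their fold changes are given as a description without a test. The RNA came from HGC27, a human gastric cancer cell line derived from a lymph node metastasis. There were 2 libraries of wildtype cells and 2 of RUNX3 knock-out cells (RUNX3KO), in which Cas9 and a guide to RUNX3 had been delivered by lentivirus with puromycin selection, followed by single-cell cloning. How many clones were sequenced, and whether wildtype cells were handled in parallel, is not given in the sources used here. The knock-out, the delivery and the clone therefore cannot be told apart in any value below. They also do not say whether replicates were separate cultures, so the errors measure the spread between these libraries only, which may be technical.

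Chromosome arms carry genes of unrelated function, and the products of many of these genes work in complexes with products of other chromosomes. Among the members, PSMA4 is a subunit of the 20S proteasome, PRC1 and KIF23 build the spindle midzone at cell division, BLM is a DNA helicase, MAP2K1 is the MEK1 kinase of the MAPK cascade and IDH2 is a mitochondrial isocitrate dehydrogenase. RUNX3, the gene targeted in the knock-out, encodes a transcription factor that binds DNA at sites often written TGTGGT or TGCGGT.

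Between 11731401 and 12110876 reads per library were counted on genes, and 12967 genes passed a filter on low counts. The targeted gene RUNX3 was lower but still counted, with 351 and 308 counts in wildtype and 225 and 185 in RUNX3KO libraries (log2 fold change -0.70, SE 0.0961). Its call was lost without RUNX3KO replicate 2, at -0.55. The study reports that RUNX3 protein was absent from the knock-out cells by immunoblot, and these counts measure RNA only. Of the epithelial markers, KRT19 had 0 counts and EPCAM at most 1 count in every library, as did the gastric markers TFF1, TFF2, MUC5AC, MUC6 and GKN1. Of markers of other cell types, PECAM1 and CDH5 of endothelium and ALB of liver were at 0, PTPRC of blood cells had at most 5 counts and DES of muscle at most 6. CDH1 (15, 21, 30 and 32 counts in the order wildtype 1 and 2, RUNX3KO 1 and 2), KRT8 (19, 11, 72 and 81) and KRT18 (0, 0, 2 and 14) were low and higher in RUNX3KO cells. Of the mesenchymal markers, VIM was abundant and went from 57834 and 57486 to 33828 and 35307 counts, FN1 went from 115 and 95 to 15 and 11, and CDH2 had at most 3. The labelled gastric origin was thus not visible in these markers. Epithelial RNA above 1 count was limited to CDH1, KRT8 and KRT18, at low counts. The part of the marker changes in the values of the members was not tested. In bulk RNA, a change in the number of cells with a given level cannot be told apart from a change in RNA per cell.

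Most members were higher in RUNX3KO cells by a like, modest amount. Of the 51, 49 passed the filter, and RASGRF1, a guanine nucleotide exchange factor, with 0 counts in every library, and FES, a tyrosine kinase, with 2, 1, 2 and 2 counts, did not. The log2 fold change (RUNX3KO over wildtype, from edgeR) was above 0 in 46 of the 49 tested members. Its median was 0.32, a 1.25-fold higher level, and its quartiles were 0.20 and 0.51, where all tested genes with a position had a median of 0.00 and quartiles of -0.21 and 0.17. Between replicates, the median size of the log2 ratio over the members was 0.0795 in wildtype and 0.0509 in RUNX3KO cells.

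At an adjusted p under 0.05 (quasi-likelihood test of edgeR, Benjamini-Hochberg over 12967 genes), 36 of the 49 tested members were called higher and 3 lower. Of all tested genes, 24.5% were called higher and 24.4% lower, and nothing is read from these counts because the rule used this contrast. By DESeq2, 30 members were called higher and 1 lower, where 1829 and 1863 of all 12967 tested genes were. Without RUNX3KO replicate 1, the median log2 fold change of the members was 0.33. With the fold and p thresholds of the study, 2 and 0.05, applied here to the unadjusted p, 2 members were higher (IQCH and ARNT2) and 1 lower (PAQR5), where 2.11% and 4.01% of all tested genes were. Most of the shift was thus below the fold that the study required. In CPM, that is counts scaled to library depth, both RUNX3KO libraries lay above both wildtype libraries in 40 of the 49 members and below them in 3, against 36.3% and 36.4% of all tested genes. The groups overlapped in the 6 others, LARP6, MYO9A, PARP6, STOML1, PML and MTHFS.

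The label of the set, genes with raised RNA, did not describe GLCE, PAQR5 and TLE3, which were lower, or the 2 genes with next to no counts. The 36 members called higher carried it by the choice of the set. The 10 called neither higher nor lower had values above 0, and the lack of a call does not show that they were unchanged. The 51 genes took 0.330% and 0.333% of all gene counts in the wildtype libraries, and 0.432% and 0.434% in the RUNX3KO libraries. Each RUNX3KO library showed the shift on its own, with median log2 ratios to the wildtype mean of 0.32 in both.

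The members were chosen for the raised RNA of their chromosome, so the values of its other genes restate that choice and are given as a description. All 387 tested genes of the chromosome had a median log2 fold change of 0.29 and ranked 1 among 23 chromosomes, ahead of chromosome 9 with 0.13. Chromosomes 14 and 22 lay at the other end with -0.27 and -0.53. Of the 338 tested genes of chromosome 15 that are not members, 272 were above 0, with a median of 0.26. The 210 tested genes before MAP2K1 had a median of 0.25, the 156 from MAP2K1 to CHD2 one of 0.29, and the 21 after CHD2 one of 0.62.

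**Figure D1:**
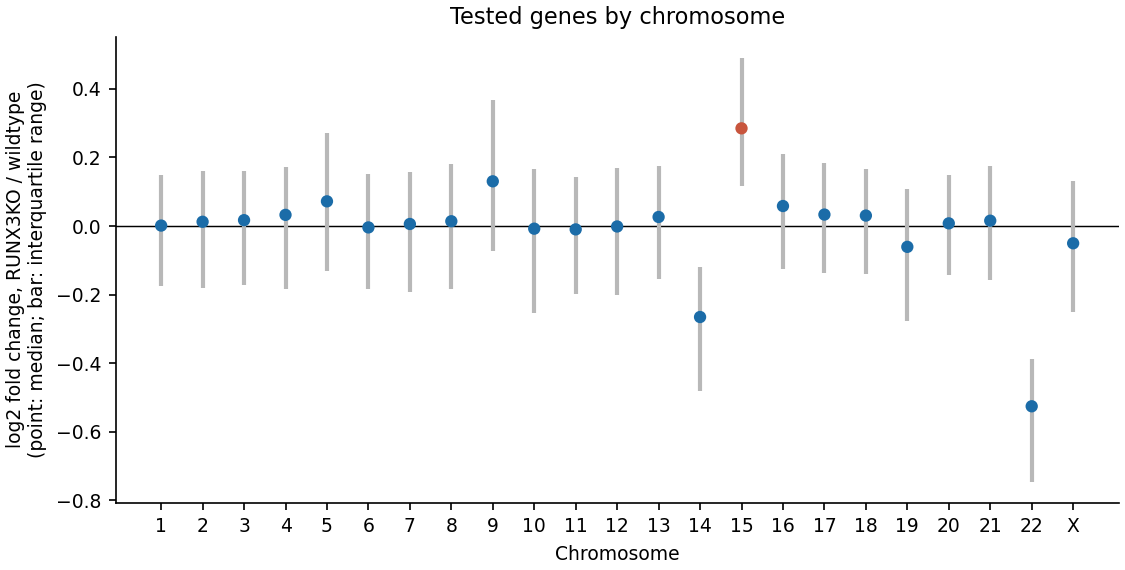
Log2 fold change of tested genes by chromosome; points are medians and bars interquartile ranges over genes, which are not replicates. Chromosome 15, in red, had a median of 0.29, whereas chromosomes 14 and 22 had medians of -0.27 and -0.53.

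Along the arm the shift was not uniform but went up in a step beyond KLHL25, after a stretch with little shift. In 5 consecutive blocks of members, the median log2 fold change was 0.36 from MAP2K1 to GLCE, 0.18 from PAQR5 to STOML1, 0.24 from PML to ETFA, 0.35 from SCAPER to MESDC2 and 0.58 from MESDC1 to CHD2. No member lies in the 8.33 Mb between MESDC1 (chr15:81293264-81298129) and ABHD2 (chr15:89630690-89745586), which held 29 other tested genes. The last tested gene before the step was KLHL25 (chr15:86302557-86338156), a subunit of a ubiquitin ligase, with 174 and 174 counts in wildtype and 179 and 169 in RUNX3KO libraries, a log2 fold change of -0.01 (SE 0.112). The next was MRPL46 (chr15:89002708-89010621), a mitochondrial ribosomal protein, with 436 and 494 counts against 1020 and 959, a log2 fold change of 1.08 (SE 0.0604). The groups overlapped in KLHL25 and were far apart in MRPL46.

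The 23 tested genes after MESDC1 up to KLHL25 had a median of 0.07, with 6 called higher and 4 lower (26.1% and 17.4%), close to the shares over all genes. The last 10 of them, up to KLHL25, had a median of 0.10 and ranged from -0.90 to 0.68, whereas the 10 from MRPL46 on had a median of 0.72 and ranged from 0.53 to 1.08. In the 2.66 Mb between the KLHL25 and MRPL46 genes no gene was tested, so the place of the step is known only to this width. It was chosen after seeing the values, and no test is attached to it.

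With the arm split there, the 40 tested members of the proximal part had a median log2 fold change of 0.30 (quartiles 0.19 and 0.35) and the 9 of the distal part one of 0.64 (quartiles 0.52 and 0.69), which correspond to 1.23-fold and 1.55-fold. The genes of chromosome 15 that are not members had similar medians, with 0.24 over 294 proximal genes and 0.67 over 44 distal genes. Proximal members took 0.232% and 0.236% of gene counts in the wildtype libraries and 0.284% and 0.286% in the RUNX3KO libraries. Distal members went from 0.0983% and 0.0978% to 0.148% and 0.149%. The relative rise was therefore larger in the distal part in both RUNX3KO libraries.

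Beyond the step the change was even over a long run of genes. From MRPL46 to VPS33B, all 29 tested genes, 8 of them members, were above 0, with a median of 0.68 and a range from 0.16 to 1.40. After VPS33B the pattern was less even, with a median of 0.62 over 24 genes, of which 18 were called higher (75%) and 3 lower (12.5%), against 24.5% and 24.4% of all tested genes. CHD2, a chromatin remodeller and the last member, lies in this stretch and had a log2 fold change of 0.29 (SE 0.0412), close to the proximal level and below the median of its neighbours, 10 tested genes to either side, 0.66. Its counts were 1350 and 1326 in wildtype and 1657 and 1647 in RUNX3KO libraries.

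**Figure D2:**
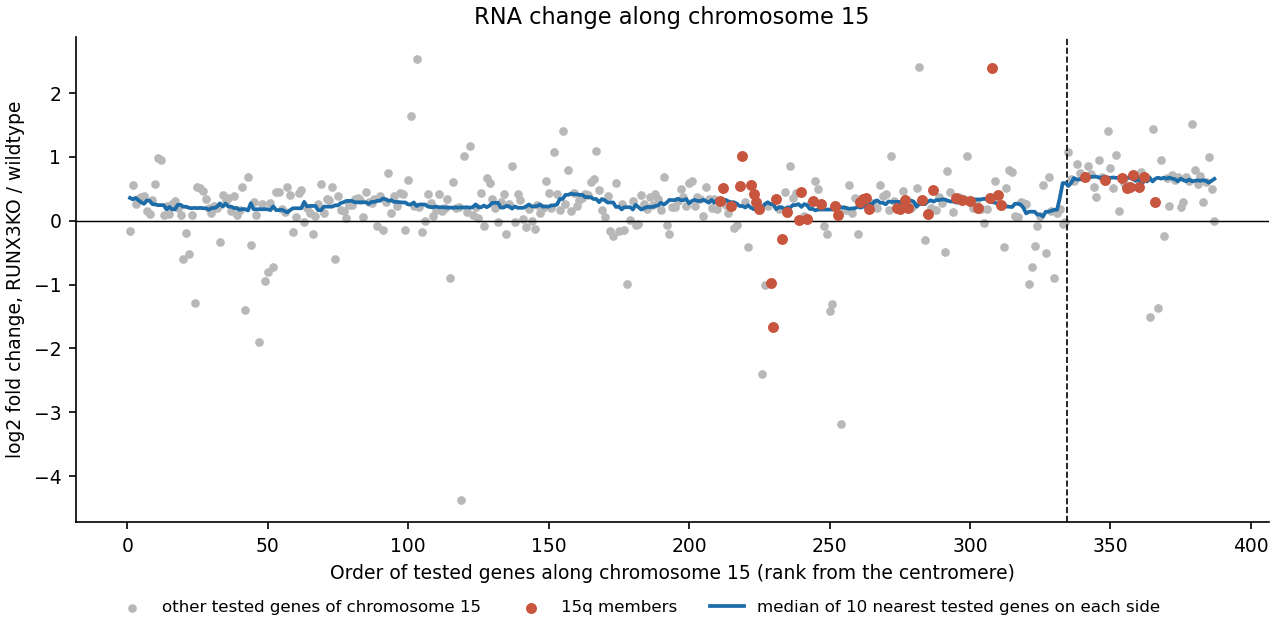
Log2 fold change of the 387 tested genes of chromosome 15 in their order from the centromere; red points are members, grey points other genes, the blue line is the median of 10 neighbouring tested genes to either side, and the dashed line marks the gap between KLHL25 and MRPL46. The line stays between 0.07 and 0.59 up to the gap, where its window already takes in genes beyond it, and between 0.54 and 0.69 after it.

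**Figure D3:**
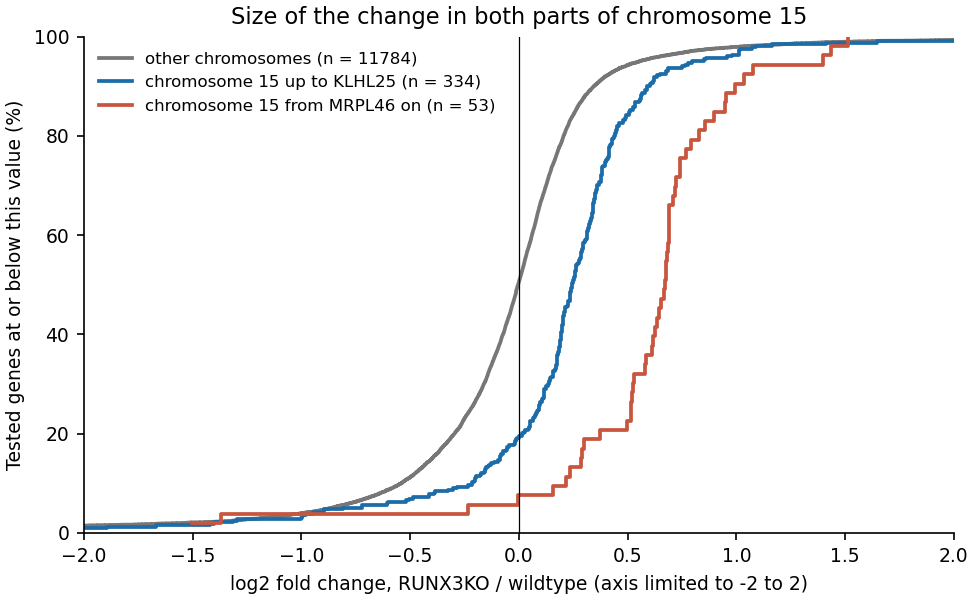
Percentage of tested genes at or below each log2 fold change for 334 genes of chromosome 15 up to KLHL25 (blue), 53 genes from MRPL46 on (red) and 11784 genes of other chromosomes (grey). The medians of both chromosome 15 curves are 0.24 and 0.67, and the grey curve is centred near 0.

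The distal members include IQGAP1, with the largest counts of the set, and PRC1. PRC1 was level with the proximal PSMA4 in wildtype (both 256 CPM) and above it in RUNX3KO cells (413 against 321 CPM). The mean level of IQGAP1, a scaffold protein of the cell cortex, was 266 ± 2.68 CPM in wildtype and 423 ± 1.59 CPM in RUNX3KO cells (SD, n = 2 each), with 3168 and 3122 counts in wildtype and 5007 and 5073 in RUNX3KO libraries. Its log2 fold change was 0.67 (SE 0.0290). PRC1, which bundles microtubules between separating chromosomes, went from 256 ± 4.18 to 413 ± 6.38 CPM (SD, n = 2 each), from 3052 and 2981 to 4817 and 5015 counts. The difference between PRC1 groups was many times the difference within them, and its log2 fold change was 0.69 (SE 0.0294). MAN2A2, a Golgi mannosidase of N-glycan processing, had 508 and 570 counts against 889 and 899, a log2 fold change of 0.72 (SE 0.0589). ABHD2, a lipase, followed with 0.69 (SE 0.0587) and IDH2 with 0.64 (SE 0.0397). The remaining distal members, the helicase BLM, the proprotein convertase FURIN and the myosin chaperone UNC45A, lay between 0.52 and 0.53, so BLM, FURIN and UNC45A were the lowest of the distal part after CHD2.

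Members nearest the median of the set were ETFA, ARIH1, MAP2K1 and MORF4L1, all proximal. ETFA, a subunit of the mitochondrial electron transfer flavoprotein, had 1588 and 1669 counts in wildtype and 2022 and 2074 in RUNX3KO libraries, a log2 fold change of 0.32 (SE 0.0382). ARIH1, a ubiquitin ligase, had 601 and 583 against 752 and 736 counts (0.32, SE 0.0594). MAP2K1 had 602 and 543 against 680 and 757 counts (0.31, SE 0.0620), and its call was lost without either RUNX3KO library, at 0.38 and 0.25. MORF4L1, the chromatin reader MRG15, had 2794 and 2803 against 3436 and 3585 counts (0.31, SE 0.0313). In these genes each RUNX3KO library lay above each wildtype library.

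A member was taken as below the shift when its log2 fold change plus 2 SE was under 0.5 times the median of the members (0.159), and as above it when the value minus 2 SE was over 2 times the median (0.635). By this rule 4 members lay below, GLCE, PAQR5, TLE3 and MYO9A, and 1 above, ARNT2. With library size alone, upper-quartile scaling or no filter, 2 members lay above. MYO9A was the closest to its limit, with an upper edge of 0.158. With a replicate block and by DESeq2, 3 members lay below and MYO9A passed the limit. It also passed the limit without RUNX3KO replicate 2, at 0.04, and without wildtype replicate 1, at 0.05, where another member took its place. PRC1 fell just short of the upper limit, with a lower edge of 0.632. That limit lay at the median of the distal members (0.636), so a distal gene near or above it need not depart from its own part.

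GLCE (chr15:69452923-69564556, plus strand), the epimerase that turns glucuronic into iduronic acid in heparan sulfate, had 466 and 460 counts in wildtype and 239 and 235 in RUNX3KO libraries. Its level went from 39.2 ± 0.348 to 19.9 ± 0.496 CPM (SD, n = 2 each). The log2 fold change was -0.98 (SE 0.0825), where its neighbours, 10 tested genes to either side, had a median of 0.26. The adjacent PAQR5 (chr15:69591251-69700119, plus strand), a membrane progestin receptor, had 14 and 18 counts against 2 and 8, a log2 fold change of -1.67 (SE 0.471) that is imprecise at this depth. The PAQR5 value was -1.01 without RUNX3KO replicate 1 and -2.92 without RUNX3KO replicate 2, and its call was lost without RUNX3KO replicate 1, without a filter and by DESeq2. The next member along the arm was not lower. This was KIF23, a kinesin of the central spindle, which had 1578 and 1659 counts in wildtype and 2080 and 2055 in RUNX3KO libraries, a log2 fold change of 0.34 (SE 0.0383).

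TLE3 (chr15:70340129-70390515, minus strand), a Groucho-type corepressor, had 298 and 273 counts in wildtype and 238 and 235 in RUNX3KO libraries, a log2 fold change of -0.28 (SE 0.0931). Its call was lost by DESeq2 and without either RUNX3KO library or wildtype replicate 1, with values from -0.30 to -0.22. MYO9A, an unconventional myosin with a RhoGAP domain, had 469 and 447 against 471 and 464 counts, a log2 fold change of 0.02 (SE 0.0709) without separation of the groups. PARP6, a mono-ADP-ribosyltransferase, had a similar value of 0.02 (SE 0.0755), with 386 and 425 against 421 and 411 counts, but an upper edge above the limit.

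ARNT2 (chr15:80696692-80890274, plus strand), a partner of bHLH-PAS transcription factors, had 17 and 20 counts in wildtype and 91 and 106 in RUNX3KO libraries. Its level went from 1.57 ± 0.180 to 8.26 ± 0.783 CPM (SD, n = 2 each). The log2 fold change was 2.39 (SE 0.223), or 5.25-fold, where the 10 nearest genes on each side had a median of 0.29. IQCH had the second highest value, 1.01 (SE 0.369), from 10 and 10 to 21 and 20 counts, but too few counts to set it apart from the shift by the rule, and its call was lost by DESeq2 and whichever library was left out. IQCH also overlaps AAGAB, and 15 of the 49 tested members overlap another tested gene. Whether the counting used strand is not given in the sources used here, and reads of overlapping genes may be assigned with error. The 34 members without such an overlap had the same median, 0.32.

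Among the 107 tested genes between MAP2K1 and CHD2 that are not members, 79 lay within the limits of the rule, 19 below and 9 above. Of those with a mean of at least 50 counts, the lowest were C15orf59 (-1.42), LOXL1 (-1.31), a lysyl oxidase-like enzyme of the matrix, NMB (-0.50), which encodes neuromedin B, TBC1D2B (-0.49) and MAP2K5 (-0.41), the MEK5 kinase. The call of NMB was lost by DESeq2, without either RUNX3KO library and without wildtype replicate 2, and that of MAP2K5 without either RUNX3KO library. LOXL1 had 703 and 636 counts in wildtype and 242 and 302 in RUNX3KO libraries. The highest were SEMA4B (1.40), a semaphorin, MRPL46 (1.08), NGRN (1.04), PEX11A (0.95), a peroxisomal membrane protein, and AEN (0.89), a nuclease, of which PEX11A lost its call without RUNX3KO replicate 2. The lowest genes all lay proximal and the highest all distal to the step. The upper limit was under the median of distal genes that are not members, 0.67, so lying above it there need not be a departure from the local level.

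The members are described next by what their products do, in groups made after values were seen, without a test between roles and beside the 24.5% of all tested genes called higher. All 4 genes of cell division and genome upkeep were called higher, with log2 fold changes of 0.22 for the checkpoint protein ZWILCH, 0.34 for KIF23, 0.52 for BLM and 0.69 for PRC1, the first pair proximal and the others distal. Of 8 genes of transcription, chromatin and RNA, 6 were called higher and TLE3 lower, and the corepressor scaffold SIN3A (0.20), the snRNA gene activator SNAPC5 (0.51) and IMP3 (0.32), a protein of the small-subunit processome, were among those higher. LARP6, an RNA-binding protein, did not pass, at 0.14.

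Of 7 genes of protein modification and turnover, 4 were called higher, the SUMO ligase PIAS1 (0.56), ARIH1 (0.32), FEM1B (0.18), a receptor of a cullin ligase, and PSMA4 (0.33). SENP8, the NEDD8 protease (0.45, SE 0.200), PML (0.09), which forms nuclear bodies, and PARP6 did not pass. All 6 tested signalling genes were called higher, from 0.19 for the phosphatase PTPN9 to 0.67 for IQGAP1, with MAP2K1, the Src-inhibiting kinase CSK (0.29), the kinase ULK3 (0.34) and the netrin receptor family gene NEO1 (0.26) between them. Among 9 genes of metabolism and glycans, 7 were called higher and GLCE lower. They included the iron regulatory protein IREB2 (0.36), fumarylacetoacetase FAH (0.35) and the mannose phosphate isomerase MPI (0.19), whereas MTHFS, with 4 to 15 counts per library, could not be placed (0.20, SE 0.457).

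Of 12 genes of trafficking, membranes and folding, 7 were called higher and PAQR5 lower. AAGAB, which assists the assembly of clathrin adaptors, had 804 and 885 counts in wildtype and 1251 and 1245 in RUNX3KO libraries, a log2 fold change of 0.55 (SE 0.0493), above most proximal members. The tetraspanin TSPAN3 followed among proximal members with 0.49, the LRP chaperone MESDC2 with 0.40, the secretory carrier protein SCAMP2 with 0.35 and the lysosomal disease gene CLN6 with 0.29. SNX33 (0.20), STOML1 (0.23), SCAPER (0.11) and MYO9A did not pass. The other 3 members, IQCH, CALML4 and MESDC1, had 1.01, 0.41 and 0.25, and MESDC1 did not pass.

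The members with more RNA lay closer together. All 24 tested members above the median wildtype level of the members were called higher, where 24.5% of all tested genes were and no share for equally abundant genes was computed, with values from 0.19 to 0.72 and a median of 0.32. The 25 at or below it ranged from -1.67 to 2.39, with a median of 0.23, and 12 of them were called higher. Their median SE was 0.106, against 0.0438 for the more abundant members. Members on the plus and the minus strand had medians of 0.32 and 0.32.

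Counterparts of these genes on other chromosomes were not used to choose the members, although their lists were drawn up with earlier results of these data known. A list of 133 genes whose products share a complex, pathway or family with a member was examined, and 127 were tested, none of them on chromosome 15. Their median log2 fold change was 0.05. In the same edgeR test, adjusted over all genes, 45 were higher and 29 lower, that is 35.4% and 22.8%, where 24.5% and 24.4% of all tested genes were. By DESeq2, which called fewer genes in all, 28 partners were higher and 22 lower, where 1829 and 1863 of 12967 tested genes were. The median of the partners was 0.05 without RUNX3KO replicate 1 and 0.03 without RUNX3KO replicate 2.

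PSMA4 is a 20S proteasome subunit encoded on chromosome 15, unlike the other subunits listed. It had 2937 and 3102 counts in wildtype and 3772 and 3876 in RUNX3KO libraries, a log2 fold change of 0.33 (SE 0.0309). Of the other 13 subunits, 5 were higher and 3 lower, with a median of 0.04. PSMA5, the highest of them, rose by 0.27 (edgeR adjusted p = 9.32e-12). The subunits that fell, PSMA6 (-0.47, edgeR adjusted p = 1.37e-19), PSMB5 (-0.27) and PSMA3 (-0.20), all lie on chromosome 14, whose median was -0.27. RNA of subunits of the same complex thus differed in direction, from PSMA4 to PSMA6.

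The partners of PRC1, KIF23 and ZWILCH in the central spindle and at kinetochores had a median of 0.11. Of 10, 5 rose, PLK1 the most with 0.23 (edgeR adjusted p = 8.18e-09), and INCENP (-0.13) and KNTC1 (-0.23) fell. KNTC1 and ZW10 (0.22) are, with ZWILCH, the subunits of the RZZ complex. RACGAP1, which binds KIF23, had a value of 0.01 (SE 0.0346). Partners and relatives of BLM had a median of -0.11, with RMI1 higher (0.26) and RECQL lower (-0.15), and TOP3A at -0.11 and RMI2 at -0.17 did not pass. Of the 5 subunits or cofactors around SNAPC5, SNAPC3 (0.87) and SNAPC1 (0.26), the latter on chromosome 14, rose and SNAPC2 (-0.21) and SNAPC4 (-0.18) fell.

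In the SIN3 and MRG15 complexes 9 of 15 partners rose and 1 fell, with a median of 0.12. SAP30 rose by 1.05 (edgeR adjusted p = 3.99e-30), and SIN3B, the paralog of SIN3A, fell by 0.40. Of 18 genes of the SUMO and NEDD8 pathways and PML bodies, 8 rose, such as UBA2 (0.42) and SENP1 (0.27), and 3 fell, SP100 (-1.01), NEDD8 (-0.42) and PIAS3 (-0.34). NEDD8 lies on chromosome 14, and SP100, a component of the bodies that PML forms, on chromosome 2. None of 7 MAPK cascade partners of MAP2K1 rose and 3 fell, among them KSR1 (-1.03) and ARAF (-0.18). MAP2K2, the closest relative of MAP2K1, had 2314 and 2088 counts in wildtype and 2255 and 2294 in RUNX3KO libraries, a log2 fold change of 0.03 (SE 0.0368).

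Among tyrosine kinases, LYN (0.68), MATK (0.44) and FER (0.31) rose and FYN fell from 109 and 94 to 7 and 19 counts, a log2 fold change of -2.97 (edgeR adjusted p = 1.11e-18). Partners of IDH2, ETFA and IREB2 had 1 of 8 higher and 4 lower and a median of -0.13. IDH1, the cytosolic counterpart of IDH2, fell by 0.40, ACO1, the relative of IREB2, by 0.44, and ETFB, which pairs with ETFA, by 0.18. IDH3B rose by 0.10. Around FAH and MTHFS, MTHFD1 on chromosome 14 fell by 0.44, and HPD, which acts before FAH in tyrosine breakdown, had 0 counts in both wildtype libraries and 18 and 11 in RUNX3KO libraries, at least 4.80-fold higher against a floor of 3 counts per library.

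Of 8 enzymes of secretion and glycans, HS2ST1, which acts on heparan sulfate after GLCE, rose by 0.27, and PCSK5 (-2.18) and EXT2 (-0.33) fell. The last list, of 26 tested genes, held paralogs of other members and also genes whose products work with a member. Of these 26 genes, 9 rose and 6 fell, with a median of 0.05. IQGAP2 (-0.90) and IQGAP3 (-0.58) fell while IQGAP1 had 0.67. ULK2 rose by 0.59 and ULK1 fell by 0.60 beside 0.34 for ULK3. ARNT, the paralog of ARNT2, had -0.01 (SE 0.0558), with 755 and 761 against 776 and 742 counts. HSP90AB1 and HSP90AA1, with which UNC45A works, rose by 0.34 and 0.13, and HSP90AA1 lies on chromosome 14. Of 8 tested partners on that chromosome, 2 rose and 5 fell.

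**Figure D4:**
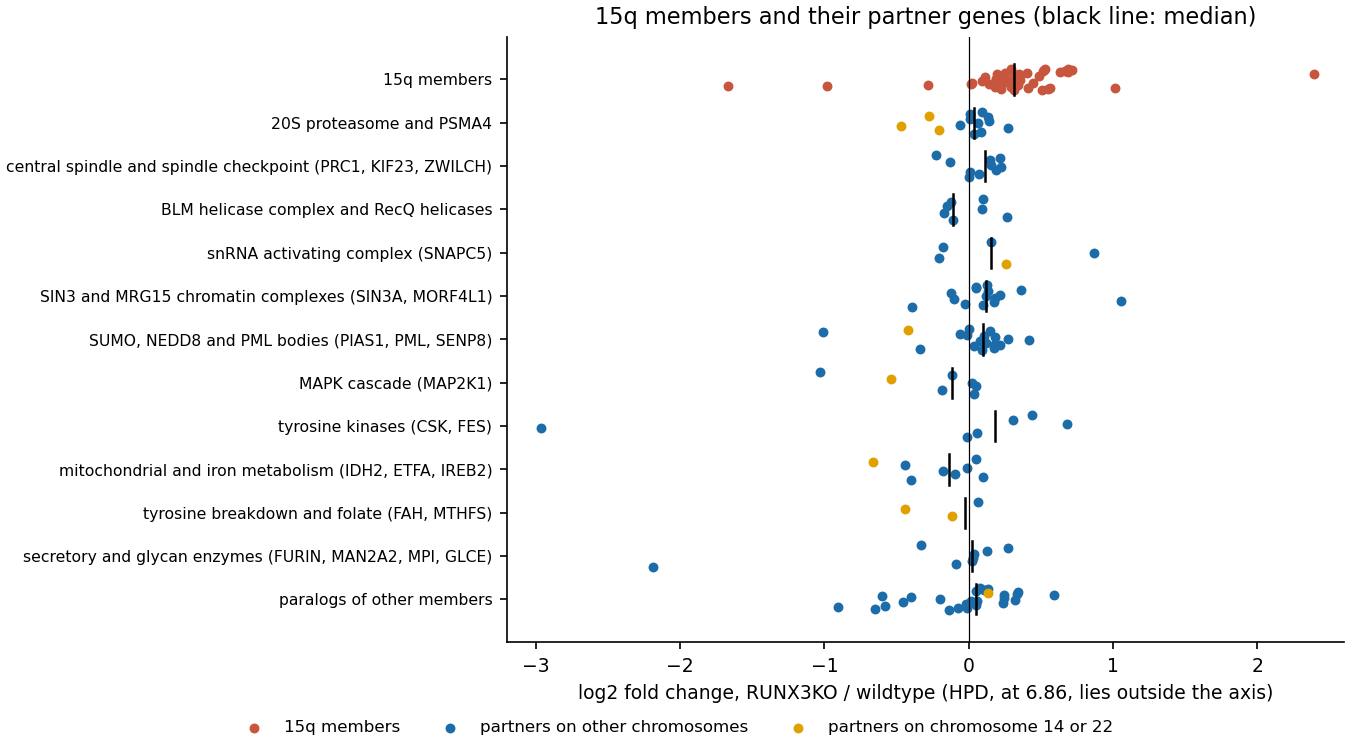
Log2 fold change of 49 tested members (red) and of tested partner genes by list (blue, or yellow for partners on chromosome 14 or 22); black lines are medians and HPD lies outside the axis. The medians of the partner lists lie between -0.13 and 0.18, below that of the members at 0.32.

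Few promoters of the members held the RUNX letters. RefSeq promoters (GRCh38.p14), 250 bases before to 50 after a start, were found for 46 members, MESDC1 and MESDC2 under the symbols TLNRD1 and MESD. TGTGGT or TGCGGT, on either strand, stood in 4 of them (8.70%), against 19.4% of 27305 promoters and 14.9% of those of 336 tested genes of chromosome 15. A match is only a run of letters, and the choice of start matters. The median GC content was 66.3% for members, as for tested genes of chromosome 15, and 58.3% for all promoters. The 4 tested members with the letters had a median log2 fold change of 0.27 and the 41 without one of 0.32. These 30-base windows show the match in capitals, as the reverse complement ACCGCA or ACCACA (read 5′ to 3′ along the gene, placed on GRCh37 by exact match), because they include GLCE, a member below the shift, and ABHD2, a distal member:
GLCE (chr15:69452994-69453023, plus strand): agaggctggagctgcggcACCGCAggcctg
SCAMP2 (chr15:75165792-75165821, minus strand): gaatgcccacccACCGCActattgtgggct
MTHFS (chr15:80189522-80189551, minus strand): cggaccacggggACCGCAcgagggctgggt
ABHD2 (chr15:89584133-89584162, plus strand): acacttcggtaaACCACAgctcccagtatt
The match lay after the start in GLCE, at base 39, and before it in SCAMP2, MTHFS and ABHD2, by 103, 183 and 84 bases. SCAMP2 (0.35) and ABHD2 (0.69) had values near those of their neighbours, whereas GLCE was lower.

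The 250 bases before the RefSeq start of ABHD2 and of IQGAP1, members of the distal part with log2 fold changes of 0.69 and 0.67, show how the sequence before the start can differ, with a GC content of 51.2% in ABHD2 and 74.4% in IQGAP1 (capitals mark the RUNX letters, of which IQGAP1 has none). The RefSeq start of ABHD2 used here lies far upstream of the gene span that GENCODE gives. The printed bases end at chr15:89584228 and that span begins at chr15:89630690, so they may not precede the start of the RNA counted. The RefSeq start of IQGAP1 coincides with the start of its GENCODE span:
ABHD2 (chr15:89583979-89584228, plus strand): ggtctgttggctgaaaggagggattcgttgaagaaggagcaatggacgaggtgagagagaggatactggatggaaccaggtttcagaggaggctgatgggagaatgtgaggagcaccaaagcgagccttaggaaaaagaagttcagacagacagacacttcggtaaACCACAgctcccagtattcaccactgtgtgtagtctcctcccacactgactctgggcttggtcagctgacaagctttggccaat
IQGAP1 (chr15:90931224-90931473, plus strand): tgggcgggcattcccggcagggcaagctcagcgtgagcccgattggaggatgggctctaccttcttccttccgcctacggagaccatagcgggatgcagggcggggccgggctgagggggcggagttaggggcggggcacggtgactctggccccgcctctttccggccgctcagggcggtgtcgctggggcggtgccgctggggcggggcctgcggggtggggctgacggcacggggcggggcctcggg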

How the data were processed

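RNA-seq of 2 wildtype and 2 RUNX3KO libraries of HGC27 cells was analysed from raw counts per gene symbol that the authors deposited without normalization. The methods name STAR with hg19 and featureCounts on GENCODE, whereas the submitters' processing notes name HISAT2 2.1.0 and HTSeq, and the tables close in the form that htseq-count writes, so the counter is uncertain. The 5 closing rows without a gene took 25.9% to 28.1% of counts and were left out. Medium and RNA extraction are also described differently in the methods and the labels.

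Groups were compared in R 4.3.3 with edgeR 4.0.16 (filterByExpr with a minimum count of 10, TMM, quasi-likelihood test, prior count 0.125, Benjamini-Hochberg adjustment over 12967 genes). SE was taken as the size of the log2 value over the root of F. On simulated counts with known changes, 52 of 68 genes changed 1.3-fold and 61 of 66 changed 1.5-fold were recovered among 12911 tested, with 2 false calls over all sizes. The changed genes all had a mean of at least 50 counts, so recovery at lower counts was not examined. Every gene was drawn with the same dispersion, 0.000211, so the false calls do not cover genes that vary more. Positions came from GENCODE on GRCh37, the build called hg19, for 21662 of 25559 symbols. Order along the arm was by gene start.

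The members and lists were chosen with earlier results of these data known. Every member is accounted for. Values in every library are given for the 4 highest, 4 lowest and 4 nearest the median, for those outside the limits of the shift and for RUNX3. Other genes shown with counts were added after their values were seen, as were the 7 role groups. Among other tested genes from MAP2K1 to CHD2 the 5 highest and 5 lowest with a mean of at least 50 counts were named, and among partners the called genes at the ends of each list, with further genes by role; a few of these are not reported here. Libraries with the same replicate number did not deviate together (correlation of deviations 0.0257), so they were not paired. The chi-square per degree of freedom between replicates was 1.22 in wildtype and 1.18 in RUNX3KO. Alternatives were other scalings, filters, prior count and test (DESeq2 1.42.0), a replicate block and each library left out.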

Additional observations from a re-analysis of the deposited data

How the results depend on the processing

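The median of the members, the medians of the 3 stretches of chromosome 15 and the difference between distal and proximal members (0.32 to 0.36) kept their direction in every alternative run. Upper-quartile scaling gave a median of 0.297 for members, 0.271 from MAP2K1 to CHD2 and 0.0290 for partners, and library size alone gave 0.0297 for partners. Those scalings, and no filter, put 2 members above the shift. Requiring 10 counts in every library left 160 genes higher and 298 lower by 2-fold. DESeq2 called 1829 genes higher and 1863 lower over all genes, 1 member lower and 28 partners higher. The median of the members beyond the gap between KLHL25 and MRPL46, a split chosen after seeing the data, was 0.636. MYO9A was negative with library size alone (-0.0036), upper-quartile scaling (-0.0043), without RUNX3KO replicate 1 (-0.0052) and without wildtype replicate 2 (-0.0196).

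Leaving out each library, with the lone sample assumed to vary like the other group, gave 1285 to 2745 genes higher and 1378 to 2806 lower, 23 to 34 members higher and 1 to 3 lower, 1 to 2 members above the shift, and 18 to 42 partners higher and 19 to 26 lower. The medians were 0.311 to 0.341 for members, 0.291 to 0.317 from MAP2K1 to CHD2 and 0.0292 to 0.0468 for partners, and MYO9A ranged from -0.0196 to 0.0515. Among the genes named singly, 22 values lost their call over all alternatives. A replicate block left the median of the members at 0.317 and called 6286 genes in either direction, against 6341 without it, and it moved no count of calls by over 1.5 times. Same-numbered libraries share only a number. In the simulation with 2 libraries a group, 52 of 68 changes of 1.3-fold were recovered, all in genes with a mean of at least 50 counts.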

Other observations

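Outside the stretch of the members, chromosome 15 held further genes whose values left its general shift, chosen after their values were seen. THBS1, which encodes the matrix protein thrombospondin 1, had 1010 and 998 counts in wildtype and 375 and 392 in RUNX3KO libraries, a log2 fold change of -1.40. PLCB2, a phospholipase C, had -0.94 and KLF13, a transcription factor, -0.52. FBN1, which encodes the microfibril protein fibrillin 1, had 55 and 39 counts against 103 and 110 (1.16). NR2F2, an orphan nuclear receptor gene beyond CHD2, had 308 and 289 against 569 and 592 counts (0.95).

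The most abundant genes of the chromosome that are not members, all in its proximal part, differed in how far they moved. RPL4 and RPLP1, which encode ribosomal proteins, had 0.25 and 0.18, B2M, the light chain of MHC class I, 0.20, and PDIA3, a disulfide isomerase, 0.21. PKM2, the pyruvate kinase gene, had 18061 and 18025 counts in wildtype and 19078 and 19282 in RUNX3KO libraries, a log2 fold change of 0.07 (SE 0.0209), and ANXA2 had 0.05 (SE 0.0238). The other genes named in this group lay between 0.18 and 0.25, around or under the proximal median of 0.24.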
